A study of Homo sapiens with 15 samples.

Results

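hsa-miR-99b-5p, hsa-let-7e-5p and hsa-miR-125a-5p, written below without the species prefix, are the 3 dominant mature products of a microRNA cluster on human chromosome 19, and their counts were followed through 14 libraries of a small RNA sequencing study of DiFi, a long-established cell line from a human colorectal cancer. The members were taken by name from a table of 1619 mature miRNA entries, of which they are 3. The cluster was chosen by measured values: earlier results of the same libraries had shown miR-99b-5p lower in HDM than in cell pellets and in plates 2 and 3. All levels are therefore given as a description, and tests are confined to contrasts that were not themselves part of that choice. For miR-99b-5p, the tests of filtered over unfiltered HDM and of HF7 over HF6 plates still use libraries whose levels entered the choice. The study's title names supermeres, a class of extracellular nanoparticles, and its design text describes trying ways to grow the cells for collecting secreted RNA carriers.

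All groups are DiFi cells or material labelled as coming from them, with no treatment or genotype recorded. They comprised filtered HDM, unfiltered HDM, cell pellets, and cells from plates 1, 2 and 3, each with 1 library labelled HF7 and 1 labelled HF6, so that 6 groups of 2 libraries made 12 replicated libraries. HDM media and regular media had 1 library each. HDM and HF are used as the labels write them, without a definition. Whether the 2 libraries of a group came from separate cultures is not recorded, so the p-values below speak only to the spread between these libraries, which may be technical. A further sample, HDM medium without cells, was not analysed here. Library totals ran from 205747 counts in HF7 unfiltered HDM to 4896931 in regular media. The HF7 cell pellet, at 313398 counts, was the other shallow library, and precision is lowest in these 2. The 6 epithelial miRNAs looked at as a check of cell type (miR-200c, miR-200b, miR-141, miR-192, miR-194 and miR-215) were present in every group, with a summed level of 157421 to 352965 CPM (counts put on the same library size) over the replicated libraries.

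MicroRNAs are short RNAs cut from hairpin precursors, and each guides silencing proteins to messenger RNAs that pair mainly with its seed, the bases at positions 2 to 8. Neighbouring hairpins of a cluster can be released from 1 primary transcript, after which each mature product is processed and decays on its own. The cluster joins 3 old families: miR-99b belongs to the miR-99/100 family, known for repressing components of mTOR signalling; let-7e to let-7, known as differentiation-linked repressors of RAS and HMGA2; and miR-125a to miR-125, whose known targets include LIN28 and ERBB2. Similar arrangements of the same families on chromosomes 11 and 21 yield miR-100, let-7a and miR-125b, and miR-99a, let-7c and miR-125b.

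The mature sequences show why the members have to be counted apart from relatives that carry the same seed. They are from RefSeq (GRCh38.p14), match the sequences deposited in the table, run 5′ to 3′ and have the seed in capitals; each member is followed by its closest relatives.
miR-99b-5p: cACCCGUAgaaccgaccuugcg
miR-99a-5p: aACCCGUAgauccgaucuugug
miR-100-5p: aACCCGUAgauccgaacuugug
let-7e-5p: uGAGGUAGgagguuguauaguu
let-7a-5p: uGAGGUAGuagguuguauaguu
miR-125a-5p: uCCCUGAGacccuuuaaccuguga
miR-125b-5p: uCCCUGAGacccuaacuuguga
The 3 members have 3 different seeds and share no family with each other. Compared base by base from the 5′ end, miR-99b-5p differs from miR-99a-5p and from miR-100-5p at 4 positions each. let-7e-5p differs from let-7a-5p at 1 position, U9G, with the let-7a base first and positions counted from 1 at the 5′ end. let-7a-5p was far more abundant than let-7e-5p in every library.

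The 3 hairpins lie on the plus strand of GRCh38 within 728 bases, chr19:51692612-51693339. MIR99B is at chr19:51692612-51692681, MIRLET7E at chr19:51692786-51692864 and MIR125A at chr19:51693254-51693339, with 104 bases from the end of MIR99B to MIRLET7E and 389 bases from the end of MIRLET7E to MIR125A. In GENCODE 29 they fall inside the same-strand protein-coding transcript SPACA6-214 without touching any of its exons, and are therefore intronic. On the opposite strand they overlap exon 1 of the lincRNA SPACA6P-AS. The hairpins, with both mature arms in capitals, show which arm of each the counts below come from.
MIR99B: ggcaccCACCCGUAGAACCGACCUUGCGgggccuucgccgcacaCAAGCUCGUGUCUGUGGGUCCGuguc
MIRLET7E: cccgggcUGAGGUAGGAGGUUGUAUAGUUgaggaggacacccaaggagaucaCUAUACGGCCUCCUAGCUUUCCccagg
MIR125A: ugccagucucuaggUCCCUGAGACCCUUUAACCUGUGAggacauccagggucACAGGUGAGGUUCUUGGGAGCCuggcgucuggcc
The first capital run in each is the 5p arm, which is the member, and the second is the 3p arm.

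The levels of all 3 members fell into a common pattern, high in cell pellets and plate 1 cells and low in HDM and plates 2 and 3. Levels are CPM after TMM scaling, which sets libraries on a common scale from the bulk of their miRNAs; they allow each miRNA to be compared between libraries. Together the members took 0.00806% of counts in HDM media and 0.0888% in HF6 plate 1, the lowest and highest shares. Their summed level averaged 126 ± 21.0 CPM in filtered HDM, 124 ± 24.3 in unfiltered HDM, 893 ± 417 in cell pellets, 877 ± 169.7 in plate 1, 253 ± 49.8 in plate 2 and 108 ± 16.1 in plate 3 (SD, n = 2 each).

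miR-99b-5p had 60 and 66 counts in filtered HDM, 5 and 68 in unfiltered HDM, 66 and 1061 in cell pellets, 578 and 1058 in plate 1, 255 and 413 in plate 2, and 147 and 47 in plate 3, the HF7 library first in each pair. Its levels were 33.4 and 23.7 CPM in filtered HDM, 18.4 and 27.4 in unfiltered HDM, 239 and 385 in cell pellets, 237 and 315 in plate 1, 72.8 and 94.5 in plate 2, and 36.5 and 38.0 in plate 3. Both pellet and both plate 1 libraries lay above the other 8 replicated libraries, and the lowest of these 4 was 2.51 times the highest of the 8. In order of mean level, the groups were cell pellets, plate 1, plate 2, plate 3, filtered HDM and unfiltered HDM. The pellet and plate 1 ranges overlapped, as did those of filtered and unfiltered HDM, whereas plate 2 stood between plate 1 and plate 3 without overlap.

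miR-125a-5p was the most counted member in 13 of 14 libraries and equalled miR-99b-5p in HF7 plate 3. It had 89 and 195 counts in filtered HDM, 14 and 193 in unfiltered HDM, 79 and 1624 in cell pellets, 1055 and 1944 in plate 1, 361 and 662 in plate 2, and 147 and 68 in plate 3. On the CPM scale these were 49.6 and 70.0 in filtered HDM, 51.7 and 77.7 in unfiltered HDM, 286 and 589 in cell pellets, 433 and 579 in plate 1, 103 and 152 in plate 2, and 36.5 and 55.04 in plate 3. The 4 pellet and plate 1 libraries again stood above the other 8, with the lowest of the 4 at 1.89 times the highest of the 8. Plate 1 and pellet ranges overlapped, and the plate 3 range overlapped both HDM ranges.

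let-7e-5p, the least counted member over the 14 libraries, had 51 and 131.6 estimated counts in filtered HDM, 9.8 and 90 in unfiltered HDM, 20.4 and 590.2 in cell pellets, 213.2 and 348 in plate 1, 145.5 and 182.5 in plate 2, and 92.9 and 31.5 in plate 3. Fractions occurred in 10 of its 14 values and in none of the values of the other two members. Its levels were 28.4 and 47.4 CPM in filtered HDM, 36.9 and 36.2 in unfiltered HDM, 72.5 and 214 in cell pellets, 87.4 and 104 in plate 1, 41.7 and 41.9 in plate 2, and 23.1 and 25.9 in plate 3. It showed the same separation of 4 libraries from 8 by the narrowest margin, 1.53 times, which was 1.20 times when libraries were scaled by total counts alone. The pellet range enclosed that of plate 1, and the filtered HDM range enclosed those of plate 2 and of unfiltered HDM. Of the 535 miRNAs tested, 59 (11.0%) had all 4 pellet and plate 1 libraries above the other 8, and 45 (8.41%) had all 4 below.

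**Figure D1:**
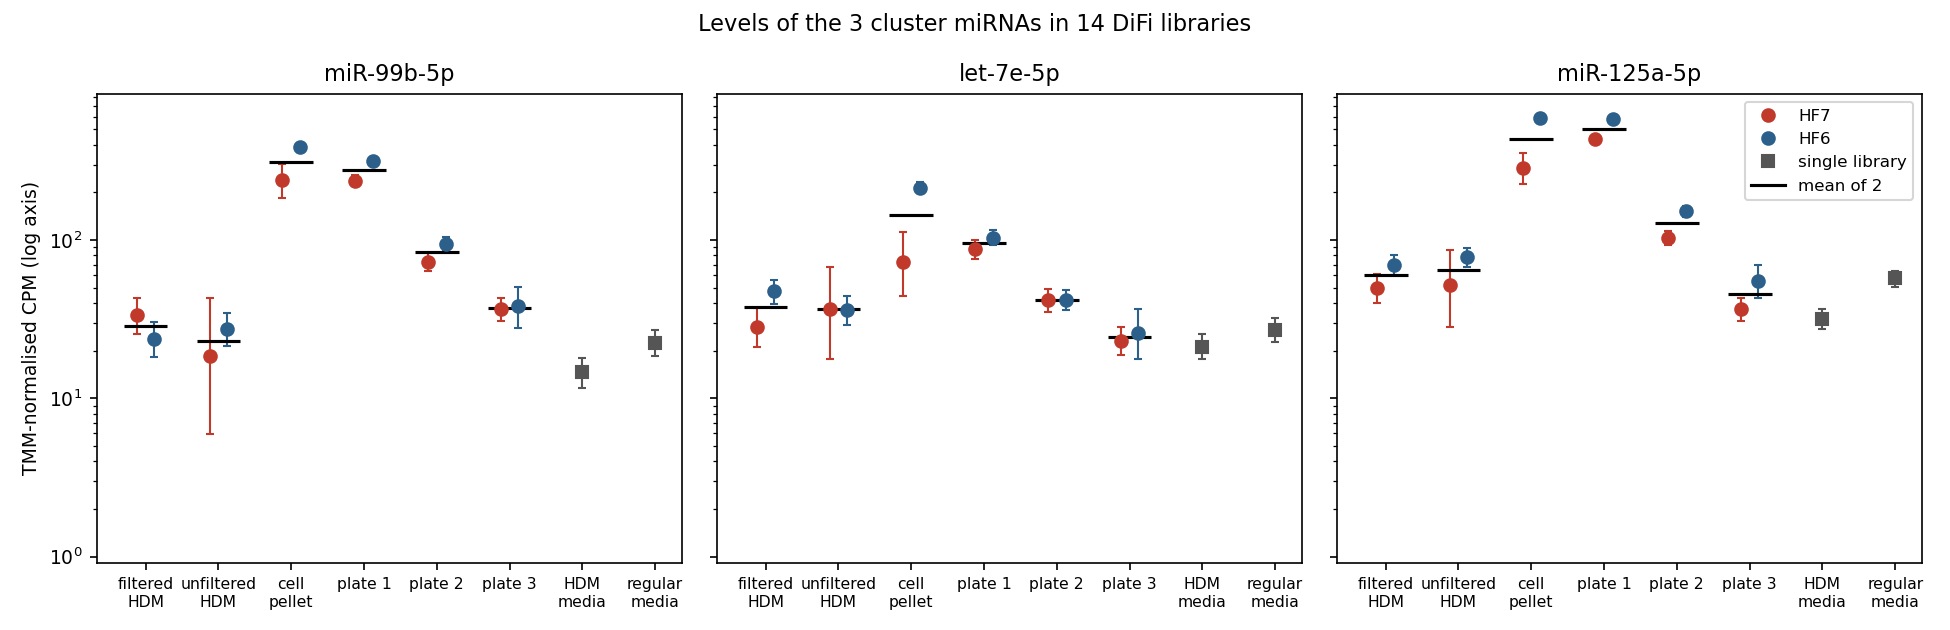
Level of each member in every library, in TMM-normalised CPM on a log axis, with groups along the horizontal axis; points are libraries (HF7 and HF6 by colour, squares for single media libraries), whiskers are 95% Poisson counting intervals and lines are means of 2. For all 3 members the pellet and plate 1 points stand above every other replicated library, with the smallest gap for let-7e-5p (1.53 times).

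The HDM samples were compared with cell pellets to ask which miRNAs differ between the collected material and the cells. All 3 members were lower in both HDM fractions. Against cell pellets, unfiltered HDM had a log2 fold of -3.66 ± 0.35 for miR-99b-5p (12.6-fold lower), -2.70 ± 0.38 for miR-125a-5p (6.51-fold lower) and -2.12 ± 0.41 for let-7e-5p (4.34-fold lower; SE of the edgeR fit). Filtered HDM had -3.50 ± 0.32 for miR-99b-5p, -2.90 ± 0.36 for miR-125a-5p and -2.04 ± 0.37 for let-7e-5p. All 3 met the edgeR call of a Benjamini-Hochberg adjusted p under 0.05 as lower, beside 17.6% of all miRNAs tested in unfiltered HDM (32.1% in either direction) and 21.5% in filtered HDM (38.9% in either direction); the choice of members used this contrast, so no test is drawn from it. miR-99b-5p was the 7th lowest fold of 535 in unfiltered HDM and the 16th lowest in filtered HDM. For comparison, miR-146a-5p, an NF-kappaB-induced miRNA already known to be low in HDM here, had -4.30 ± 0.34 in unfiltered HDM.

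The size of these differences rested in part on the HF6 cell pellet, the deeper of the pair. Without it, the log2 fold of unfiltered HDM over the remaining pellet was -3.12 for miR-99b-5p, -1.93 for miR-125a-5p and -0.90 for let-7e-5p, and that of filtered HDM was -2.95, -2.11 and -0.78 in the same order. Scaling by total counts moved the median of all miRNAs to 0.64 in unfiltered HDM and 0.56 in filtered HDM, from near 0 under TMM. Calls were lost as well: let-7e-5p was not called in either HDM fraction without the HF6 pellet, nor in unfiltered HDM without its HF6 library (-1.93). With plates grouped by HF number, which widens the shared spread, miR-99b-5p kept its call in filtered HDM and lost it in unfiltered HDM, while let-7e-5p and miR-125a-5p lost theirs in both. Under total-count scaling miR-99b-5p was at -3.10 and -3.02, still below that median. In bulk samples, fewer cells of a kind and less RNA of a kind per cell cannot be told apart.

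**Figure D2:**
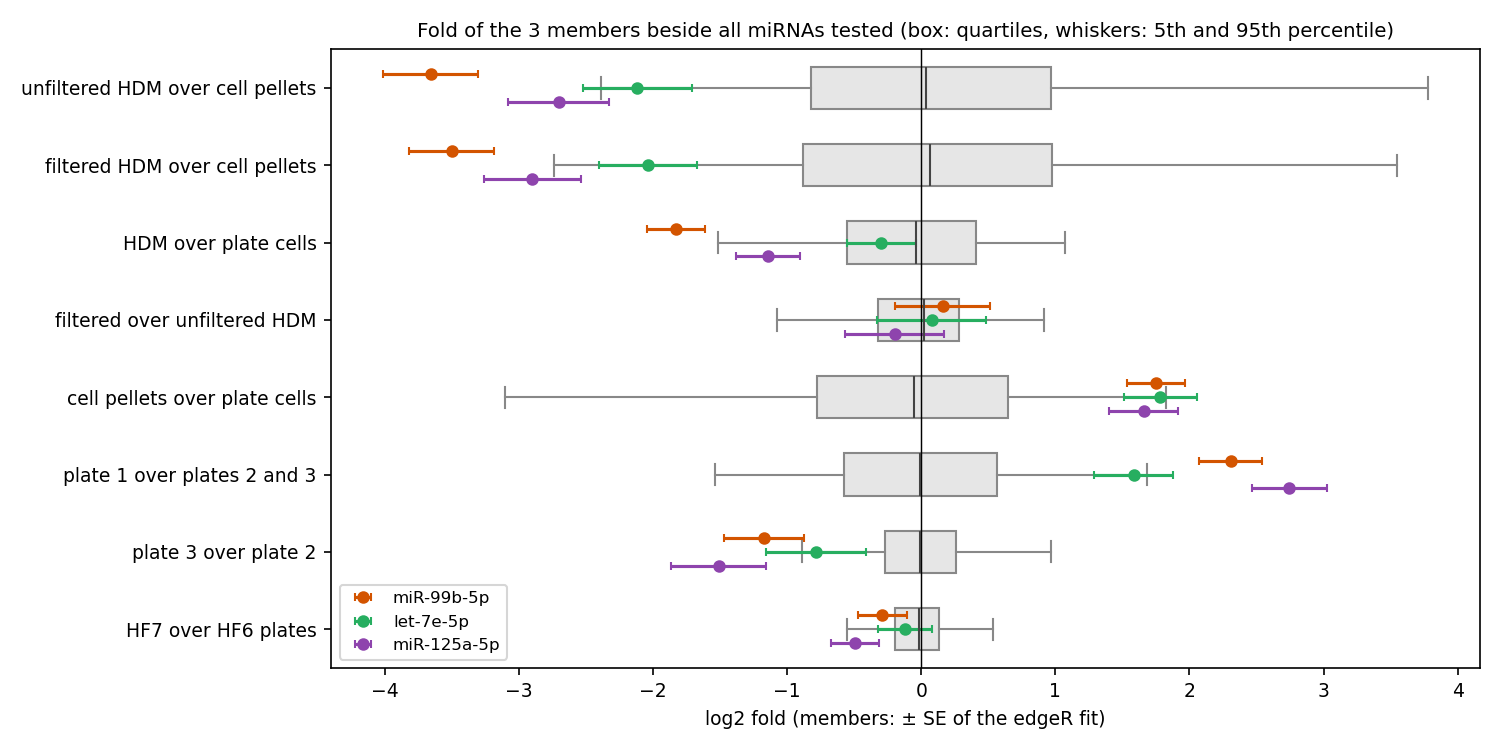
Log2 fold of each member (points, ± SE of the edgeR fit) in each comparison, the first-named group over the second, beside all miRNAs tested (boxes for quartiles, whiskers for the 5th and 95th percentiles). In filtered over unfiltered HDM the 3 points lie at 0.16, 0.08 and -0.20, close to the middle of all miRNAs, while in HDM over cell pellets they lie between -2.04 and -3.66.

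No difference between filtered and unfiltered HDM was detectable for the members. The log2 fold of filtered over unfiltered HDM was 0.16 ± 0.35 for miR-99b-5p (approximate 95% interval, by the normal distribution, -0.54 to 0.85; edgeR adjusted p = 0.980), 0.08 ± 0.41 for let-7e-5p (-0.73 to 0.88; adjusted p = 0.980) and -0.20 ± 0.37 for miR-125a-5p (-0.92 to 0.53; adjusted p = 0.976). None was called in edgeR, and 0 of 3 had an unadjusted p under 0.05; DESeq2 and limma-voom also called 0 of 3, and 0.561% of all miRNAs tested were called. The sign of each changed when single libraries were left out. HF7 unfiltered HDM held 5 to 14 counts per member, and a difference inside these intervals was not detectable at this depth.

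Among the plated cells, plate 1 exceeded plates 2 and 3 for all 3 members. miR-125a-5p was higher on plate 1 by a log2 fold of 2.74 ± 0.28 (6.70-fold; edgeR adjusted p = 1.56e-06), with both plate 1 libraries above all 4 libraries of plates 2 and 3. let-7e-5p was higher by 1.59 ± 0.29 (3.002-fold; edgeR adjusted p = 0.000747), also without overlap. The adjusted p over the alternatives tried ran from 2.27e-25 to 5.32e-05 for miR-125a-5p and from 1.17e-08 to 0.0233 for let-7e-5p. miR-99b-5p, whose plate 2 and plate 3 levels were known when it was chosen, is given as a description, at 2.31 ± 0.23. Both tested members were called higher, beside 14.8% of all miRNAs tested (26.4% in either direction). They ranked 6th (miR-125a-5p) and 30th (let-7e-5p) of 535 from the highest fold. How many other miRNAs had both plate 1 libraries above all those of plates 2 and 3 was not counted. Plate 1 was set apart from plates 2 and 3 because earlier results of these libraries had shown other miRNAs to differ by plate number, so these p-values are not independent of those results. The number of miRNAs called in either direction, 141, dropped to 63 without HF6 plate 1 and to 73 without HF7 plate 1, since 1 plate 1 library then remained.

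Levels were lower again on plate 3. Plate 3 over plate 2, a contrast added after the values were seen, gave log2 folds of -1.17 ± 0.30 for miR-99b-5p, -0.79 ± 0.37 for let-7e-5p and -1.51 ± 0.35 for miR-125a-5p, beside a median of -0.01 over all miRNAs. For each member both plate 3 libraries lay below both plate 2 libraries. How many other miRNAs did so was not counted. The labels do not say what distinguishes plates 1, 2 and 3.

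The HF7 plates were set against the HF6 plates with plate number as a term. miR-125a-5p was lower in HF7 in 3 of 3 plate numbers, by -0.50 ± 0.18 on the log2 scale, with an unadjusted p of 0.00557 and an edgeR adjusted p of 0.236, so it did not pass. miR-99b-5p, at -0.29 ± 0.18 (edgeR adjusted p = 0.804), and let-7e-5p, at -0.12 ± 0.20 (edgeR adjusted p = 0.994), were likewise lower in HF7 in 3 of 3 plate numbers and did not pass. In this comparison 0.805% of 497 miRNAs tested were called, and the fit has 2 residual degrees of freedom. How many of the 497 were lower in HF7 in 3 of 3 plate numbers was not counted, so the members' direction is a description.

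Because of the gradient over plates, any contrast with plate cells depended on which plates entered. Cell pellets over the mean of the 3 plates gave 1.75 ± 0.22 for miR-99b-5p, 1.66 ± 0.26 for miR-125a-5p and 1.78 ± 0.27 for let-7e-5p, and all 3 were called higher in edgeR beside 17.6% of all miRNAs tested (32.7% in either direction), as a description. Against plate 1 alone the values were 0.21 ± 0.28, -0.17 ± 0.33 and 0.72 ± 0.35 in the same order, and against plates 2 and 3 alone they were 2.52 ± 0.24, 2.57 ± 0.28 and 2.31 ± 0.30. Pellets thus differed from plates 2 and 3 by much more than from plate 1, where the ranges overlapped for every member and none was called. Without the HF6 pellet, the values against all 3 plates were 1.24 for miR-99b-5p, 0.93 for miR-125a-5p and 0.57 for let-7e-5p.

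HDM over the mean of the 3 plates gave -1.83 ± 0.22 for miR-99b-5p, -1.14 ± 0.24 for miR-125a-5p and -0.30 ± 0.25 for let-7e-5p; 2 of 3 members were called lower in edgeR, beside 16.6% of all miRNAs tested (31.6% in either direction), as a description. Against plate 1 alone the 3 values were -3.37 ± 0.25, -2.97 ± 0.29 and -1.35 ± 0.31. Against plates 2 and 3 alone they were -1.06 ± 0.23, -0.23 ± 0.25 and 0.23 ± 0.28, so that only miR-99b-5p of the 3 was further from 0 than its standard error, and let-7e-5p changed sign. The comparisons of HDM and of plates 2 and 3 with pellets share the pellet libraries, so their likeness is no separate result.

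**Figure D3:**
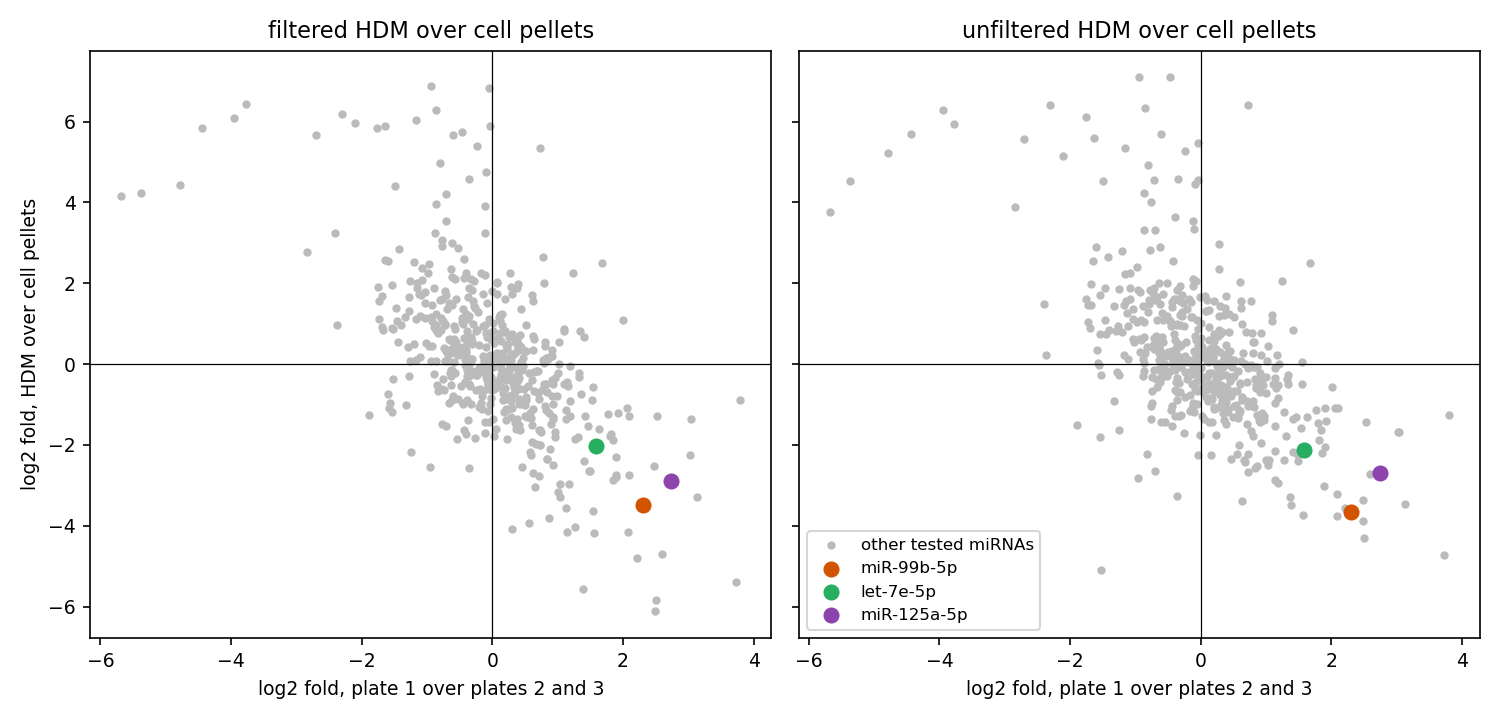
Log2 fold of plate 1 over plates 2 and 3 (horizontal) against log2 fold of filtered (left) and unfiltered (right) HDM over cell pellets (vertical), 1 point per tested miRNA. The 3 members lie in the lower right of both panels, higher on plate 1 and lower in HDM, at horizontal values of 1.59 to 2.74.

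The contrasts of plate 1 with plates 2 and 3 and of HDM with cell pellets have no library in common. Of the 535 miRNAs, 79 were called higher on plate 1 and 86 were called lower in both HDM fractions; 45 were in both lists, which is 57.0% of the plate 1 list and 52.3% of the HDM list. The 45 are 8.41% of all miRNAs tested. The members were among them, but the choice of the cluster used the HDM calls and the plate 2 and 3 levels of miR-99b-5p, so nothing is read from their presence. miR-146a-5p and miR-210-3p, the hypoxia-induced miRNA, were also in both lists, at 2.50 ± 0.24 and 2.09 ± 0.27 on plate 1.

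Ratios between members, taken within a library, do not depend on scaling and show that the members did not move in proportion. miR-99b-5p was below let-7e-5p in 3 of 4 HDM libraries and in both media libraries, and above it in all 8 pellet and plate libraries. The mean log2 ratio of miR-99b-5p to let-7e-5p was -0.38 ± 0.87 in filtered HDM, -0.67 ± 0.38 in unfiltered HDM, 1.27 ± 0.60 in cell pellets, 1.52 ± 0.12 in plate 1, 0.99 ± 0.26 in plate 2 and 0.60 ± 0.08 in plate 3 (SD, n = 2 each). Every HDM library had a lower ratio than every pellet and plate library. The cluster was chosen for low miR-99b-5p in HDM, so a low ratio there follows in part from that choice. In HF7 unfiltered HDM the ratio rests on 5 and 10 counts. How many other pairs of miRNAs separate in this way was not counted. let-7e-5p against miR-125a-5p ran the other way: the log2 ratio was -0.68 ± 0.17 in filtered HDM, -0.78 ± 0.45 in unfiltered HDM, -1.71 ± 0.35 in cell pellets and -2.39 ± 0.12 in plate 1. It was higher again on the later plates, at -1.58 ± 0.39 in plate 2 and -0.87 ± 0.30 in plate 3. miR-99b-5p against miR-125a-5p was lower in unfiltered HDM, at -1.45 ± 0.07, than in cell pellets, at -0.44 ± 0.25, but in filtered HDM the HF7 and HF6 libraries were apart, at -0.56 and -1.56. The ratios are a description, with no test run on them.

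**Figure D4:**
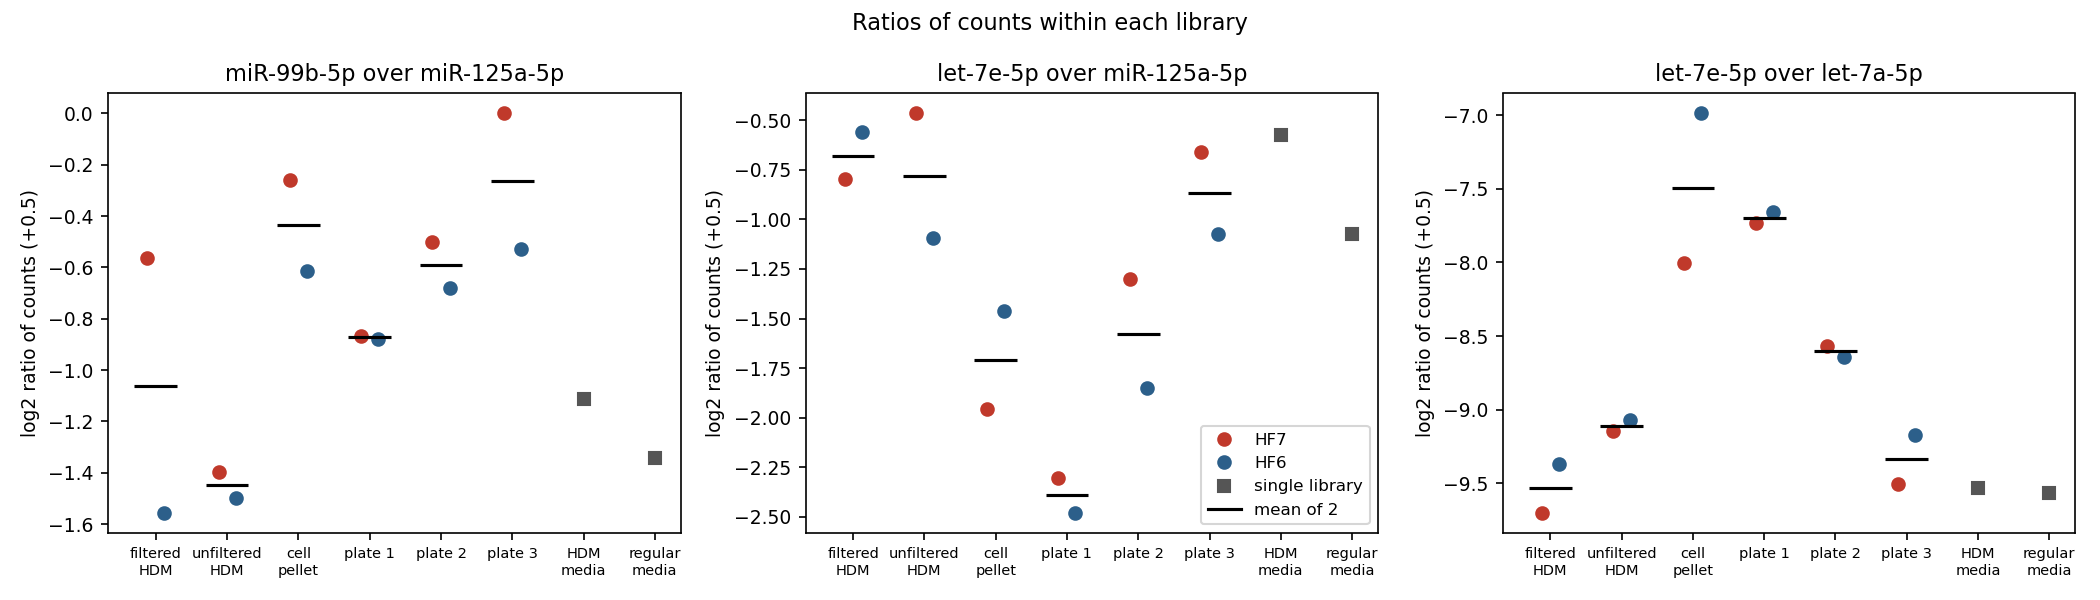
Log2 ratio of counts (0.5 added to each) within each library, by group, for miR-99b-5p over miR-125a-5p, let-7e-5p over miR-125a-5p and let-7e-5p over let-7a-5p; points are libraries and lines are means of 2. By group mean, let-7e-5p was lowest relative to miR-125a-5p in plate 1 (-2.39) and highest relative to let-7a-5p in cell pellets (-7.50). Relative to let-7a-5p, the HF6 pellet was at -6.99 and the HF7 pellet at -8.00, the latter below both plate 1 libraries.

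let-7e-5p amounted to 0.380% of let-7a-5p in the HF7 pellet and 0.787% in the HF6 pellet, 0.468% and 0.494% in plate 1, 0.263% and 0.250% in plate 2, and 0.137% and 0.171% in plate 3. In the 4 HDM libraries it was between 0.119% and 0.185%, and in the media libraries 0.134% and 0.132%. A let-7a-5p read that carries the single changed base would be counted as let-7e-5p, and how much of the low let-7e-5p level that makes up was not tested. let-7a-5p itself lay between 15190 and 31456 CPM in the 12 replicated libraries.

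Relatives with the same seeds, the other products of the clusters on chromosomes 11 and 21, and miR-10a-5p and miR-10b-5p made a list of 17. Of these, 15 were in the table and all 15 were tested. miR-10a-5p shares its seed with none of the members, and no sequence was read for miR-10b-5p. On plate 1 against plates 2 and 3, 0 of the 15 were called in edgeR or DESeq2, 4 had an unadjusted p under 0.05 in edgeR, and the median log2 fold was 0.32, beside -0.01 over all miRNAs. miR-99a-5p was at 0.51 ± 0.19 (edgeR adjusted p = 0.0550), miR-125b-5p at 0.35 ± 0.21 (edgeR adjusted p = 0.241) and let-7a-5p at 0.29 ± 0.19 (edgeR adjusted p = 0.265). limma-voom called 5 of the 15 higher (let-7c-5p, let-7g-5p, let-7i-5p, miR-99a-5p and miR-125b-2-3p). The members' values, 1.59 to 2.74, were above those of all 15 relatives in that contrast; the difference between members and relatives was not tested.

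In unfiltered HDM against cell pellets, 0 relatives were higher and 5 were lower, namely let-7f-5p, let-7g-5p, let-7i-5p, miR-10a-5p and miR-99a-5p, with a list median of -0.35. The lowest called was miR-99a-5p, at -1.03 ± 0.23 (edgeR adjusted p = 0.00247), set against -3.66 for its seed relative miR-99b-5p. In filtered HDM 2 were lower, miR-99a-5p at -0.81 ± 0.22 (edgeR adjusted p = 0.00857) and miR-100-5p at -1.92 ± 0.74 (edgeR adjusted p = 0.0493), and the list median was 0.08. In DESeq2 miR-99a-5p was lower there too, miR-100-5p was not called, and let-7b-5p and miR-125b-5p were called higher. miR-100-5p was scarce, with 0 to 18 counts a library. miR-125b-5p, at 0.21 ± 0.25 in unfiltered HDM (edgeR adjusted p = 0.558) and 0.54 ± 0.25 in filtered HDM (edgeR adjusted p = 0.1003), did not pass in either. miR-125a-5p accordingly ran at 0.0532 times miR-125b-5p in filtered HDM, 0.0732 times in unfiltered HDM, 0.552 times in cell pellets, 0.458 times in plate 1, 0.137 times in plate 2 and 0.0558 times in plate 3, as geometric means of 2 libraries.

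Against plate cells the relatives were mixed. In cell pellets over plate cells 3 were higher (let-7c-5p, let-7f-5p and let-7g-5p) and 1 was lower (miR-10b-5p), with a median of 0.39. In HDM over plate cells 3 were higher (let-7a-5p, let-7b-5p and let-7c-5p) and miR-99a-5p was lower, with a median of 0.10. No relative was called in edgeR, DESeq2 or limma-voom in filtered over unfiltered HDM, where 1 had an unadjusted edgeR p under 0.05, or in HF7 over HF6 plates, where 0 had.

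**Figure D5:**
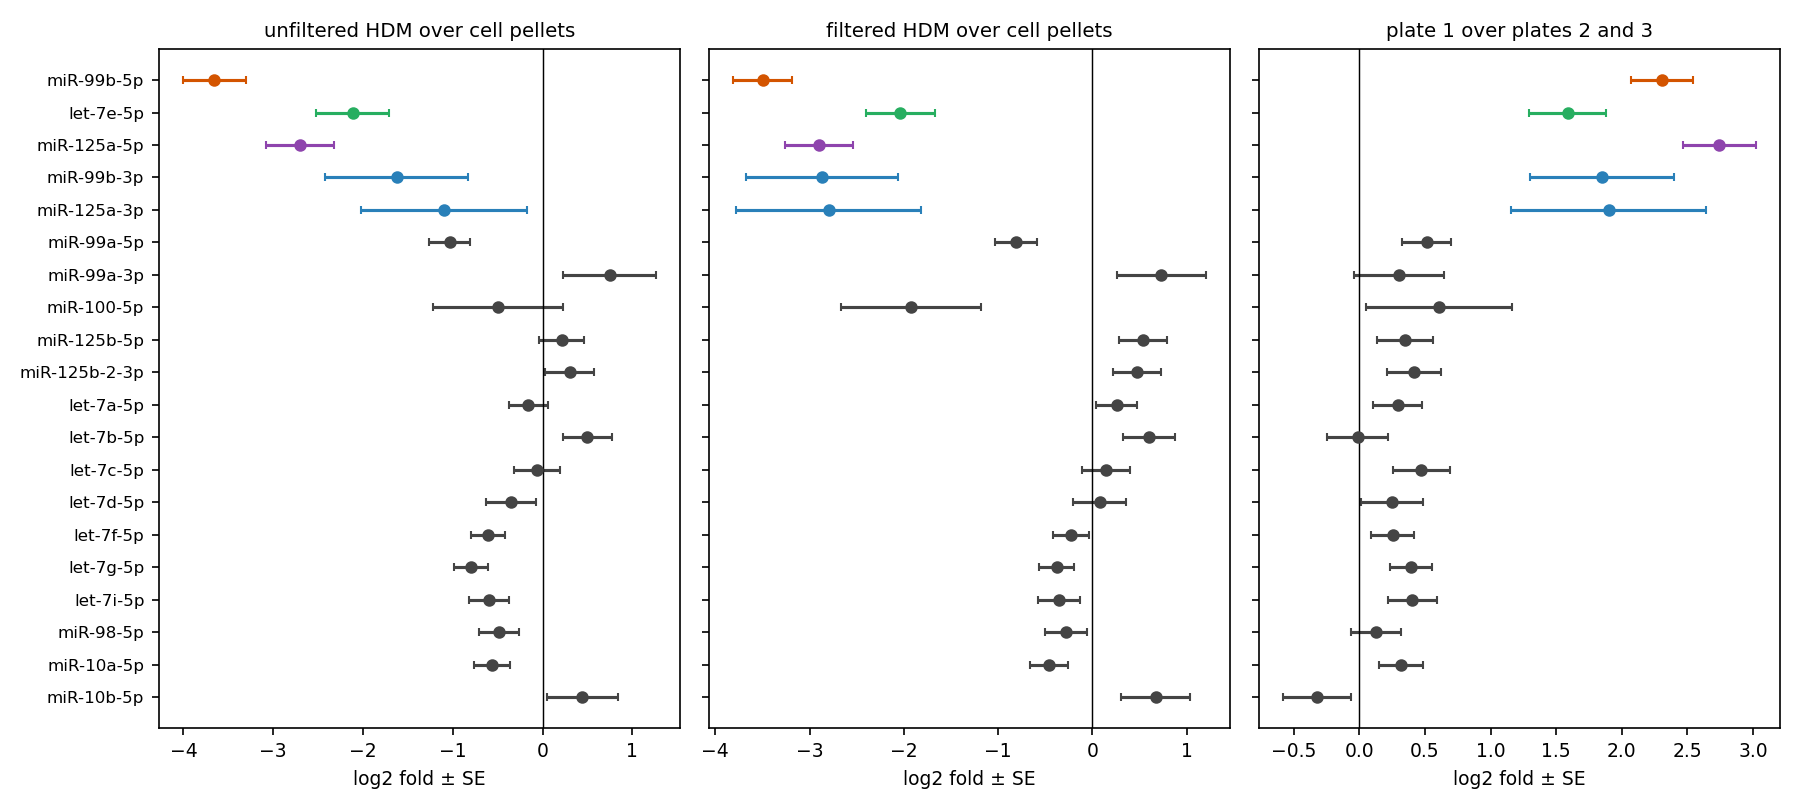
Log2 fold ± SE of the edgeR fit for the 3 members, their tested 3p arms and the 15 tested relatives, in unfiltered HDM over cell pellets, filtered HDM over cell pellets and plate 1 over plates 2 and 3. The lowest relative in the HDM panels is miR-100-5p, at -1.92, while the members lie at -2.04 to -3.66 there and 1.59 to 2.74 on plate 1.

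The 3p arms, the less abundant side of each hairpin, were sparse. Over all 14 libraries they made up 3.87% of the counts of both arms for miR-99b, 1.46% for let-7e and 0.777% for miR-125a, and 12, 8 and 12 libraries in that order held any count of them. miR-99b-3p had 5 and 2 counts in filtered HDM, 0 and 11 in unfiltered HDM, 0 and 41 in cell pellets, 21 and 35 in plate 1, 9 and 21 in plate 2, and 9 and 1 in plate 3 (HF7 first). On plate 1 over plates 2 and 3 it was at 1.85 ± 0.55. That value is a description, since plate 2 and 3 levels of miR-99b-5p, from the same hairpin, were known at the choice. In the same contrast miR-125a-3p, at 1.90 ± 0.74, did not pass (edgeR adjusted p = 0.0686). miR-125a-3p had 1 and 2 counts in filtered HDM, 1 and 5 in unfiltered HDM, 0 and 16 in cell pellets, 7 and 9 in plate 1, 4 and 3 in plate 2, and 3 and 0 in plate 3. All pellet counts of both arms thus came from the HF6 library, and the HDM contrasts with pellets, part of the choice of the cluster, are not tested for them. let-7e-3p, with at most 11 counts in a library, was not tested.

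Over the 12 replicated libraries, the miRNAs with the profile most like each member were found by Pearson correlation of log2(CPM + 1) among the 281 miRNAs that averaged 20 CPM or more. For miR-99b-5p they were miR-203a-3p (r = 0.976), miR-125a-5p (0.951), miR-99a-5p (0.932), miR-146a-5p (0.929) and miR-126-3p (0.922). For miR-125a-5p they were miR-99b-5p (0.951), miR-149-5p (0.941), let-7e-5p (0.931), let-7f-1-3p (0.929) and miR-203a-3p (0.918). For let-7e-5p they were let-7i-5p (0.938), miR-125a-5p (0.931), let-7f-1-3p (0.896), miR-1291 (0.894) and miR-132-3p (0.861). These values are a description with no test, since the libraries form separate sets and the pairs share libraries and scaling. Over the 8 HDM, plate 2 and plate 3 libraries alone, miR-99b-5p and miR-125a-5p had r = 0.694, let-7e-5p and miR-125a-5p had 0.738, and miR-99b-5p and let-7e-5p had 0.131.

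Several marker miRNAs of other cell types showed the same pattern. Of 5 endothelial and stromal markers 3 were in the table, and nearly all of their summed level was miR-126-3p; the sum was 11.1 to 26.98 CPM in HDM, 109 to 145 in cell pellets, 86.05 to 103 in plate 1 and 33.2 to 60.2 in plates 2 and 3. miR-145-5p and miR-199a-3p, which define stromal cells, had no entry, so no level could be read for them. The 3 muscle markers summed to 3.69 to 12.1 CPM in HDM, 33.4 to 109 in cell pellets, 19.9 to 21.7 in plate 1 and 6.87 to 13.4 in plates 2 and 3, with miR-206 at 0 in pellets and plate 1. The 2 neural markers summed to 16.7 to 36.9 CPM in HDM, 54.0 to 54.4 in cell pellets, 39.3 to 48.0 in plate 1 and 11.4 to 19.5 in plates 2 and 3, nearly all of it miR-9-5p. The 5 leukocyte markers summed to 1436 to 2880 CPM in HDM, 3234 to 3857 in cell pellets, 3018 to 3095 in plate 1 and 2461 to 4136 in plates 2 and 3, but their members went different ways. miR-142-5p showed the members' pattern, at 338 to 825 CPM in HDM, 1755 to 1856 in cell pellets, 1631 to 1659 in plate 1 and 697 to 1409 in plates 2 and 3. miR-155-5p was highest in HDM, at 201 to 236 CPM, against 29.4 to 58.0 in cell pellets, 24.4 to 33.2 in plate 1 and 84.7 to 99.1 in plates 2 and 3. miR-150-5p was also highest in HDM, at 45.1 to 67.1 CPM, and at most 4.28 CPM in the pellet and plate libraries. miR-142-3p overlapped between the sets, and miR-223-3p, a defining marker of myeloid cells, was at 0 in pellets and plate 1. The 3 erythroid markers summed to at most 12.3 CPM and the 1 liver marker, miR-122-5p, to at most 0.821 CPM in any group. The 6 epithelial markers summed to 157421 to 197969 CPM in HDM, 254208 to 352965 in cell pellets and 248473 to 270923 in plate 1. In plates 2 and 3 they summed to 217320 to 242933, so their sum too was highest in pellets and plate 1. Singly they differed. On plate 1 over plates 2 and 3, miR-200c-3p, miR-141-3p and miR-215-5p were called higher in edgeR, at log2 folds of 1.10, 1.14 and 0.84. There miR-192-5p, miR-194-5p and miR-200b-3p were at 0.08, 0.01 and 0.01 and were not called. The part of any of these marker miRNAs in the members' levels was not tested.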

How the data were processed

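Per the labels' protocols, RNA extraction used miRNeasy and library preparation the NEXTflex kit for small RNA; cutadapt 2.10, Bowtie 1.3.1, FastQC and GRCh38 are named in the submitters' processing notes. The authors deposited expected counts per mature miRNA, not normalized, in 1 table of 1619 entries and 14 columns; the rule behind fractions, the miRNA release and any filters are not given in the sources used here. Library totals ran from 205747 to 4896931 counts.

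Values were rounded to whole counts. The 12 replicated libraries were fitted together, 1 coefficient per group, with edgeR 4.0.16 (quasi-likelihood, TMM, filterByExpr by group); 535 miRNAs holding 99.96% of counts were tested, leaving 6 residual degrees of freedom, at a common biological coefficient of variation near 0.214. All groups share 1 estimate of the spread because each has 2 libraries. HF7 and HF6 plates were compared in the 6 plate libraries alone with plate number as a term: same-numbered plates deviated together (r from 0.741 to 0.906 in 3 of 3 plate numbers). A call is a Benjamini-Hochberg adjusted p under 0.05 over all miRNAs of 1 comparison. Media libraries were placed on the same TMM scale and entered no test. Counting intervals (exact Poisson, 95%) and the floor of 3 counts cover counting error only, since the table holds no molecular identifiers. The 2 libraries of each replicated group were not copies: a chi-square test of each such pair gave 13.3 to 126 per degree of freedom. Libraries of different groups and the media libraries were not compared in this way.

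The members, the lists of relatives and markers, and the tests were chosen with earlier results of these data known. The miRNAs named are the members, their 3p arms, the relatives listed or called, miR-146a-5p and miR-210-3p, the 5 most alike per member, and markers. Sequences are from RefSeq; 20 of 21 entries looked up were matched. Plates were grouped by plate number, since earlier results showed them to differ by it. Alternatives were DESeq2 1.42.0, limma-voom (limma 3.58.1), RLE size factors, total counts, no filter, at least 50 counts in 2 libraries, plates grouped by HF number, compared libraries only, blocks on replicate number, and each library left out. The scripts were tested on simulated data.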

Additional observations from a re-analysis of the deposited data

Results flagged for a closer look

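The 2 single media libraries, which enter no comparison, held all 3 members above the floor of 3 counts. In HDM media miR-99b-5p stood at 14.6 CPM (84 counts), let-7e-5p at 21.2 CPM (122 counts) and miR-125a-5p at 31.7 CPM (182 counts). In regular media miR-99b-5p stood at 22.5 CPM (113 counts), let-7e-5p at 27.1 CPM (135.9 estimated counts) and miR-125a-5p at 57.2 CPM (287 counts). On the TMM scale the members in HDM media were below their levels in the 12 replicated libraries, but the counting intervals overlapped. Those of all 3 members overlapped the intervals of HF7 unfiltered HDM. Those of let-7e-5p and miR-125a-5p also overlapped HF7 plate 3, and that of let-7e-5p further libraries. By total counts let-7e-5p was higher in HDM media, at 25.4 CPM, than in HF7 plate 3, at 24.4 CPM. HDM medium without cells was not analysed here, so no background level of the medium was measured, and single libraries have no replicate check.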

How the results depend on the processing

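In HDM over cell pellets and in plate 1 over plates 2 and 3, the members' log2 folds kept their direction under every alternative tried, and both tested members stayed past the threshold on plate 1 in 14 of 14. The HDM calls were less firm: over 13 alternatives let-7e-5p lost its call in 3 for unfiltered HDM and 2 for filtered HDM, miR-125a-5p in 1 each, and miR-99b-5p in 1 for unfiltered HDM. Elsewhere the plates used decided sign and size. In pellets over plates every member lost its call with plates grouped by HF number and with plate 1 as the only plates. In HDM over plates miR-99b-5p and miR-125a-5p lost theirs with plates grouped by HF number. There miR-125a-5p also lost its call with plates 2 and 3 as the only plates. With plate 1 as the only plates, cell pellets gave 0.21 for miR-99b-5p, 0.72 for let-7e-5p and -0.17 for miR-125a-5p with 30 miRNAs called, and HDM gave -3.37, -1.35 and -2.97 in that order. With plates 2 and 3 only, pellets gave 2.52 for miR-99b-5p and 2.57 for miR-125a-5p, and HDM gave -1.06 for miR-99b-5p, 0.23 for let-7e-5p and -0.23 for miR-125a-5p. With plates grouped by HF number, which pools plates of unlike level, calls were 62 in unfiltered HDM over pellets (172 as reported), 96 in filtered HDM over pellets (208), 44 in pellets over plates (175), 56 in HDM over plates (169) and 0 in filtered over unfiltered HDM (3); miR-99b-5p was then at 1.26 in pellets and -2.32 in HDM over plates, and miR-125a-5p at 0.98 and -1.82. Scaling by total counts gave -3.10 and -3.02 for miR-99b-5p in unfiltered and filtered HDM over pellets, 1.40 in pellets over plates, and a summed level of 80.6 CPM in HDM media (67.5 as reported). limma-voom called 107 miRNAs in unfiltered HDM over pellets, 72 in pellets over plates and 216 on plate 1 (141 as reported). Fits on the compared libraries alone called 79, 121, 28 and 217 miRNAs in unfiltered HDM over pellets, filtered HDM over pellets, filtered over unfiltered HDM, and plate 1. In filtered over unfiltered HDM, DESeq2 and total counts each called 6 and no filter 7; let-7e-5p was at -0.028 with at least 50 counts in 2 libraries.

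Leaving out 1 library at a time gave 73 to 218 calls in unfiltered HDM over pellets (lowest without HF6 unfiltered HDM), 131 to 253 in filtered HDM over pellets (lowest without HF6 filtered HDM), 88 to 140 in HDM over plates (lowest without HF6 unfiltered HDM, 91 without HF6 filtered HDM), 0 to 3 in filtered over unfiltered HDM, 63 to 125 on plate 1 and 0 to 6 in HF7 over HF6 plates (0 without HF6 plate 3 or HF7 plate 1). The folds then ran, in unfiltered HDM over pellets, from -3.95 to -3.12 for miR-99b-5p, -2.48 to -0.90 for let-7e-5p and -2.98 to -1.93 for miR-125a-5p. In filtered HDM over pellets they ran from -3.65 to -2.95, -2.35 to -0.78 and -3.17 to -2.11 in that order, and in pellets over plates from 1.24 to 1.94, 0.57 to 2.15 and 0.93 to 1.98; the value nearest 0 was in each case that without the HF6 pellet. In filtered over unfiltered HDM they ran from -0.052 to 0.65, -0.30 to 0.41 and -0.41 to 0.25, and on plate 1 miR-99b-5p ran from 2.06 to 2.46. A group left with 1 library was assumed to vary like the others.

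HF numbers did not pair the libraries in a uniform way: deviations correlated by more than 0.1 in 6 of 15 pairs of groups, from -0.21 to 0.38. These values cannot exclude pairing in some groups or for some miRNAs. miR-125a-5p was lower in the HF7 library of every replicated group, which did not hold for miR-99b-5p or let-7e-5p. How many other miRNAs were lower in this way was not counted. The fit with HF number as a replicate block called 177, 209, 183, 167, 3 and 149 miRNAs in unfiltered HDM over pellets, filtered HDM over pellets, pellets over plates, HDM over plates, filtered over unfiltered HDM, and plate 1. The crossed pairing of the HDM libraries, chosen after seeing the data, called 1 in filtered over unfiltered HDM, with let-7e-5p at -0.073. Without plate number as a block, HF7 over HF6 plates gave 0 calls (4 as reported). Where a value moved, the cause was not tested. Depth limits the HF7 unfiltered HDM and HF7 pellet values most, where 3 counts correspond to 14.6 and 9.57 CPM of the library total.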
